A study of Mus musculus with 4 samples.

Results

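The 9 genes described here encode complement components and 1 complement inhibitor: C1r, C1s, C4b, C2, C3, Cfb, Cfd, C7 and Serping1. They were found as probes, control spots left aside, that carry one of these names or an older name of the same gene. The array held 13 probes for them among 41174 probes, and the 9 genes were among 21392 genes tested. For 8 genes and 12 probes the name stands in the files. C7 was found through a probe that the files call A530026G17, which the RefSeq gene table lists as a synonym of C7. All 13 probes were well above background on all 4 arrays and none was saturated.

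Expression was measured in CD45-negative cells, the fraction of a lymph node that remains when leukocytes are removed, on 1-colour Agilent arrays. Cells from the mesenteric lymph node (mLN) of wild-type C57BL/6NCrl mice were set against cells from the peripheral lymph node (pLN) of mice of the same strain, with 2 arrays per node, numbered experiment 1 and experiment 2. For both groups the labels name no treatment other than cell isolation; the nodes were digested with collagenase and CD45-negative cells isolated with magnetic beads, and the purity the submitters state (mean ± SD) was 97.4% ± 2.0 in mLN and 97.5% ± 2.2 in pLN samples. The title calls the cells stromal and the design text calls them stem cells. The labels give neither the peripheral sites, nor the animals per sample, nor whether both experiments drew on different animals. The p-values therefore measure only the spread between samples, which may be technical. All arrays lay on 1 slide that was scanned once. The 75th percentile of the signal was 1741 and 1730 on the mLN arrays and 1734 and 1686 on the pLN arrays, and between 74.0% and 81.1% of probes gave signals well above background on an array.

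Complement is a cascade of plasma proteins that tags surfaces for uptake and can open pores in membranes. In the classical pathway the proteases C1r and C1s, bound to C1q, cleave C4 and C2, whose fragments form an enzyme that cleaves C3. In the alternative pathway factor B and factor D build a second C3-cleaving enzyme, C7 takes part in the terminal pore, and the C1 inhibitor encoded by Serping1 blocks C1r and C1s. The liver supplies most of these proteins, and fibroblasts, endothelial cells and macrophages also make several of them.

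Sequences of 6 of the 60-base probes follow, since a ratio is measured only at the position of its probe. The gene ratios of C3 and C2 below come from their brighter probes, and the brighter C2 probe is not printed. They are printed 5′ to 3′ as the deposited files give them, with the files' mm8 coordinates, and all 6 lie on the minus strand of the genome. The files assign each to the gene named. No mm8 annotation was used here, so exons are not given.
C3, brighter probe, chr17:56889328-56889387: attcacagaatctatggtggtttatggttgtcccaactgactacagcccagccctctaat
C3, dimmer probe, chr17:56910450-56910607: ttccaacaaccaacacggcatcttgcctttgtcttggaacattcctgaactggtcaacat
C4b, chr17:34337472-34337531: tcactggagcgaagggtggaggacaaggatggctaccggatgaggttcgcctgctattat
C2, dimmer probe, chr17:34471237-34471412: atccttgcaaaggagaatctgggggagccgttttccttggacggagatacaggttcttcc
Cfb, chr17:34464613-34464969: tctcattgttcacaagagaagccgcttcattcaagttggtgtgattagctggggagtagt
Serping1, chr2:84566650-84568156: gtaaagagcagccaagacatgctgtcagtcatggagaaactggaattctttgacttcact
The C3 pair is shown because the probes, 21.1 kb apart, differed in how steady their ratio was between experiments. C4b is shown because a near-identical gene, C4a, lies nearby. C2 and Cfb are neighbours whose ratios differed in size. The second C3 probe and the C2, Cfb and Serping1 probes cover 158, 176, 357 and 1507 bases of the genome with 60 bases each, so their targets are split on the genome.

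Levels below are signals in units of the array's own 75th percentile, a linear scale on which 1 is the signal that 75% of probes do not exceed. A probe's brightness depends on its own sequence as well as on its transcript, so single genes were compared only with themselves between arrays. Summed levels of a marker list, given further on, are weighted toward its brightest probes. Fabp4, Gpm6a and Ahsg are named after their values were seen, as the brightest probes of their lists. RNA came from whole CD45-negative fractions, in which fewer cells of a type and less RNA per cell cannot be told apart.

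None of the 9 genes passed the limma test at an adjusted p of 0.05 (Benjamini-Hochberg over all 21392 genes), with adjusted p from 0.205 to 0.989. In all, 225 genes passed, 1.05% of those tested (0.776% higher and 0.276% lower in mLN), and their smallest fold in either direction was 2.51. At an unadjusted p under 0.05 there were 3 members, C3, C2 and C1r, all higher in mLN. That threshold took 7.8% of all genes as higher and 6.88% as lower in mLN. For 7 of the 9 genes both mLN arrays lay above both pLN arrays, for none did both lie below, and for Cfb and Cfd the nodes overlapped. Among all genes both mLN arrays lay above in 20.6% and below in 25% of genes. Among the 1132 genes with a mean level of at least 16, a subset chosen after the data were seen, these shares were 22.1% and 19.6%. The 9 genes were measured on the same 4 arrays, so their directions are not independent of each other. The median log2 fold change of the members, mLN over pLN, was 0.41, or 1.33-fold, against −0.03 for all genes. It was 0.41 in experiment 1 and 0.34 in experiment 2. An exact permutation of 2 against 2 arrays cannot give a p below 0.333, so no such test is given for single genes.

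**Figure D1:**
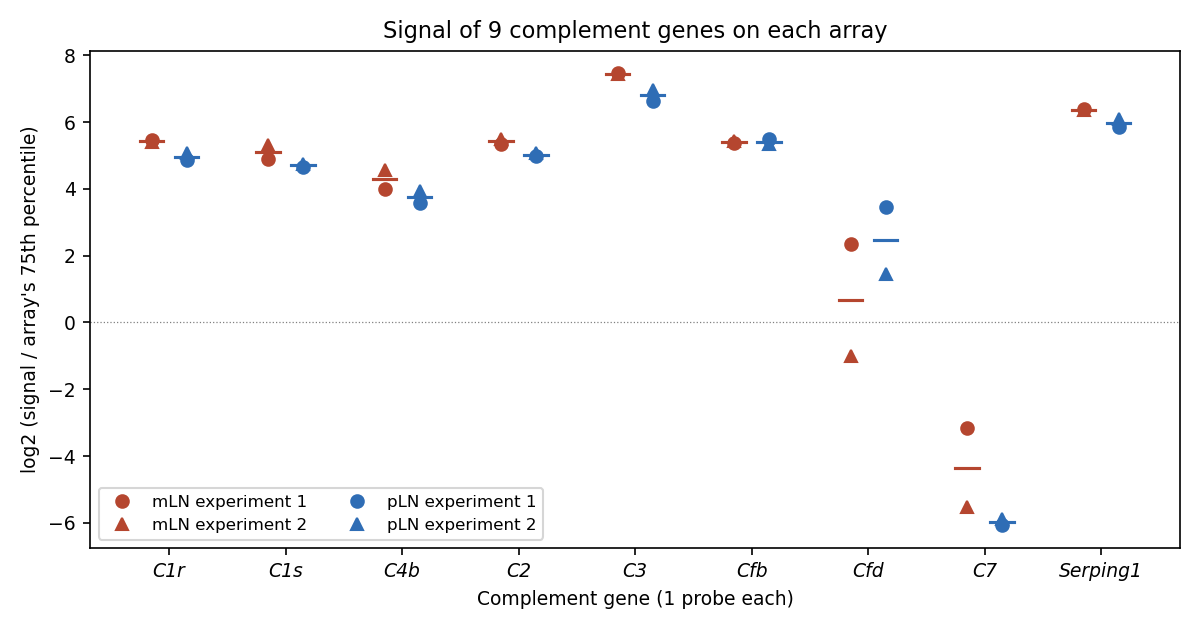
Signal of the 9 complement genes on each array as log2 of the signal over the array's 75th percentile, 1 probe per gene, with mLN left of pLN, circles for experiment 1, triangles for experiment 2 and a bar at the node mean. The mLN symbols lie above the pLN symbols for 7 genes, and Cfd and C7 show the widest spread within a node.

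C1r, the classical pathway protease that activates C1s, had levels of 44.0 and 42.1 on the mLN arrays, against 28.9 and 34.0 on the pLN arrays. The nodes did not overlap, and the log2 fold change was 0.46 ± 0.16 (SE, n = 2 per node, limma adjusted p = 0.300), or 1.37-fold. C1s, which cleaves C4 and C2, had 29.8 and 39.7 on the mLN arrays, against 25.2 and 27.0 on the pLN arrays. Its log2 fold change was 0.40 ± 0.20 (adjusted p = 0.471), and mLN 1 lay close to the pLN arrays.

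Each protease gene had a second probe under its name. The second C1r probe, taken from a transcript that the files describe as the related gene C1rb, read 9.16 and 10.3 on the mLN arrays and 6.93 and 7.12 on the pLN arrays, 1.38-fold. The second C1s probe read 13.0 and 15.8 on the mLN arrays and 11.6 and 10.7 on the pLN arrays, 1.28-fold. Both gave a ratio close to that of the brighter probe under the same name. The second C1r probe lies at chr6:124540910-124540969, the brighter one at chr6:124488653-124488712, with the C1s probes between them. It may therefore read C1rb and not C1r. Mouse has closely related copies of these genes, and transcripts of a copy may bind the same probes. A probe for the copy C1s2 gave 1.10-fold, with 1704 and 2122 signal units on the mLN arrays and 1754 and 1659 on the pLN arrays, so the nodes overlapped there. A probe for a transcript that the files call similar to C1s gave 1.27-fold, with 8148 and 11292 signal units on the mLN arrays and 7456 and 7455 on the pLN arrays, without overlap. The brighter C1r and C1s probes lie 7.72 kb apart on chromosome 6, on opposite strands.

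C4b encodes complement C4, cleaved by C1s. Its levels were 16.1 and 23.6 on the mLN arrays, against 12.1 and 15.4 on the pLN arrays. The lower mLN value lay just above the higher pLN value, and the log2 fold change was 0.52 ± 0.26 (adjusted p = 0.478), 1.33-fold in experiment 1 and 1.54-fold in experiment 2. A probe for C4a gave 62.7 and 52.8 signal units on the mLN arrays and 52.4 and 56.0 on the pLN arrays, 1.05-fold. A probe for an Ensembl transcript of C4a gave 1.24-fold, with 642 and 953 units in mLN and 646 and 601 in pLN. The nodes overlapped there, at 0.99-fold in experiment 1 and 1.55-fold in experiment 2, so the ratio rests on mLN 2. Transcripts of the C4 copies may bind each other's probes, so the C4b value is uncertain to that extent.

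C2, the partner of C4 in the C3-cleaving enzyme, had levels of 41.1 and 45.4 on the mLN arrays, against 31.4 and 33.6 on the pLN arrays. The ratio was 1.31-fold in experiment 1 and 1.35-fold in experiment 2, the closest pair among the 9 genes. The log2 fold change was 0.41 ± 0.14 (adjusted p = 0.317). The dimmer C2 probe printed above read 15.5 and 18.5 on the mLN arrays and 13.3 and 13.2 on the pLN arrays, 1.28-fold.

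C3, the central component on which all the pathways converge, had levels of 176 and 175 on the mLN arrays, against 100.03 and 125 on the pLN arrays. The deposited signals behind them were 307041 and 302815 units on the mLN arrays and 173424 and 210571 units on the pLN arrays. Each is a mean of 10 spots whose coefficient of variation was 1.80% to 3.27%, which covers the error between spots and not the spread between samples. The log2 fold change was 0.65 ± 0.17 (adjusted p = 0.205), 1.76-fold in experiment 1 and 1.40-fold in experiment 2, with a 95% interval of 1.14-fold to 2.16-fold.

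The dimmer C3 probe read 267 and 122 signal units on the mLN arrays, against 105 and 117 on the pLN arrays. It was high on mLN 1 alone, at 2.54-fold in experiment 1 and 1.02-fold in experiment 2. This probe lies nearer the start of the gene and has 1 spot per array. A probe for the EST AA733629, on the opposite strand and sharing 11 bases with the brighter C3 probe, read 695 and 698 signal units on the mLN arrays and 544 and 583 on the pLN arrays, 1.22-fold.

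**Figure D2:**
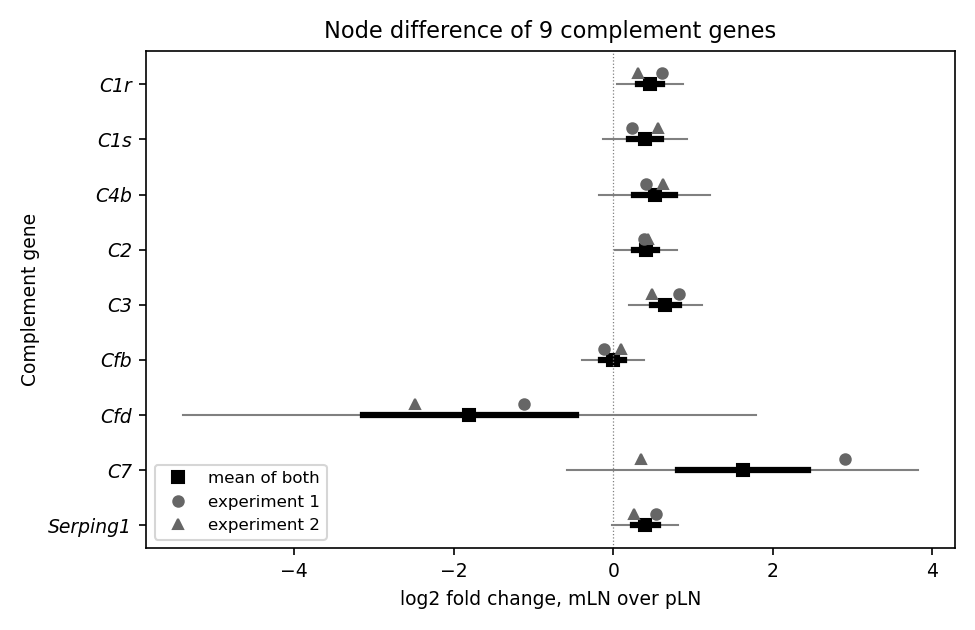
Log2 fold change, mLN over pLN, of the 9 complement genes, with squares for the mean of both experiments, thick lines for its SE, thin lines for the 95% interval of the limma fit, and circles and triangles for experiments 1 and 2. The intervals of C3, C2 and C1r lie above 0, Cfb sits at −0.01 and Cfd has the widest interval.

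Cfb and Cfd belong to the alternative pathway. Cfb, which encodes factor B, had levels of 41.6 and 43.2 on the mLN arrays, against 45.1 and 40.3 on the pLN arrays. The nodes overlapped, and the log2 fold change was −0.01 ± 0.14 (adjusted p = 0.989), with a 95% interval of 0.76-fold to 1.30-fold. The Cfb and C2 genes are neighbours. The only Cfb probe and the brighter C2 probe lie 5.72 kb apart on chromosome 17, on the same strand. The difference between the C2 and Cfb ratios was not tested.

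Cfd encodes factor D, also called adipsin, the protease that cleaves factor B and a product of adipocytes. Its levels were 5.09 and 0.494 on the mLN arrays, against 11.1 and 2.76 on the pLN arrays. Experiment 1 was higher than experiment 2 in both nodes, 10.3-fold in mLN and 4.02-fold in pLN, and within each experiment the mLN array was the lower. The log2 fold change was −1.80 ± 1.33 (adjusted p = 0.642), the largest SE among the 9 genes. This SE includes the shift between experiments. The ratio, mLN over pLN, was 0.458-fold within experiment 1 and 0.179-fold within experiment 2. With the experiment fitted as a block, the limma adjusted p of Cfd was 0.146. The log2 fold change varied with the array left out: it was −3.49 without mLN 1, −0.12 without mLN 2, −0.80 without pLN 1 and −2.81 without pLN 2. Leaving out 1 array unbalances the experiments, so these values also carry the shift between them.

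Adipocyte marker genes were read beside Cfd. Adipoq, the adipocyte hormone adiponectin, had levels of 2.83 and 0.306 on the mLN arrays and 2.23 and 0.464 on the pLN arrays, so that experiment 1 was 9.24-fold higher in mLN and 4.81-fold higher in pLN. Of 11 adipocyte genes tested, 9 were higher in experiment 1 in both nodes, against 28% of all genes, and 3 of them were over 2-fold higher in both, against 0.608% of all genes. The difference between experiments was not tested. None of the 11 passed the node test. Both mLN arrays lay above both pLN arrays for 2 of the 11 and below for 2, and the median log2 fold change was −0.20. Their summed level was 131 to 238 in mLN and 178 to 229 in pLN, most of it from Fabp4, at 121 to 199.8 in mLN and 165 to 203 in pLN. The part of adipocyte RNA in the Cfd values was not tested.

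**Figure D3:**
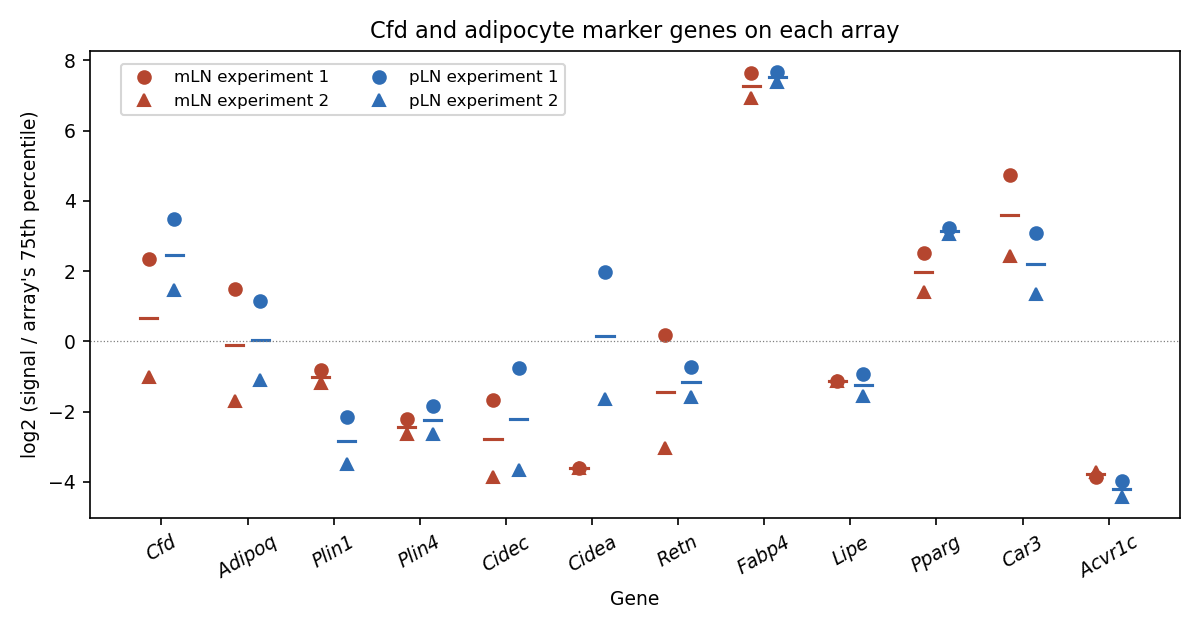
Signal of Cfd and 11 adipocyte marker genes on each array as log2 of the signal over the array's 75th percentile, with mLN left of pLN, circles for experiment 1, triangles for experiment 2 and a bar at the node mean. Cfd and Adipoq are high in experiment 1 and low in experiment 2 in both nodes.

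C7 encodes a component of the terminal pore. Its levels were 0.111 and 0.0215 on the mLN arrays, against 0.0148 and 0.0169 on the pLN arrays, or 193 and 37.1 signal units on the mLN arrays and 25.7 and 28.5 on the pLN arrays. Only mLN 1 was far from the rest, so the ratio was 7.48-fold in experiment 1 and 1.27-fold in experiment 2. The log2 fold change was 1.62 ± 0.82 (adjusted p = 0.480). Apart from mLN 1, the C7 signals lay near the background limit. The lowest signals called well above background were 12.9 and 19.0 units on the mLN arrays and 13.8 and 16.1 on the pLN arrays. Without mLN 2 the log2 fold change was 2.81 and passed (adjusted p = 0.0372), and without mLN 1 it was 0.44 (adjusted p = 0.374), so the size rests on mLN 1.

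Serping1, the C1 inhibitor gene, had levels of 84.3 and 82.0 on the mLN arrays, against 58.1 and 68.3 on the pLN arrays. The nodes did not overlap, and the log2 fold change was 0.40 ± 0.15 (adjusted p = 0.359), 1.45-fold in experiment 1 and 1.20-fold in experiment 2. C1r, C1s, C4b, C2, C3 and Serping1, the 6 members with a ratio above 1 in both experiments apart from C7, had mean ratios of 1.32-fold to 1.57-fold, and 1.18-fold to 1.76-fold within single experiments. Arrays of the same node differed by 1.01-fold to 1.47-fold for the same 6 genes. These directions held relative to the median of all genes in each other setting run except a normexp correction with the local background. That setting moved the median of all genes to 0.38, and of the 9 members C7 alone then lay above it, while the fitted values of the 6 genes stayed above 0.

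RefSeq promoter windows, the 250 bases before a gene's start on GRCm38.p6, were at hand for C1r, C1s, C3, C7 and Cfd, 6 windows in all. The C3 window is printed because C3 had the smallest adjusted p of the members. Capitals mark a match to TTGCNNAA, a C/EBP-type motif searched on both strands, whose first base lies 45 bases before the start.
C3, chr17:57228137-57228386, minus strand: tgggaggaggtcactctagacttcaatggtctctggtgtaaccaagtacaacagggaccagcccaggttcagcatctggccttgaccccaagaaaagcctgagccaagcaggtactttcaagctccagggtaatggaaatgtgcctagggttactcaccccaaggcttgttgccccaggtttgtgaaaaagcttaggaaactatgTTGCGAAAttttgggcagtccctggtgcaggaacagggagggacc
This motif occurs in 9.56% of 32851 such windows, and 1 of the 2 C1s windows also held it. The STAT-type motif TTCNNNGAA, in 7.02% of windows, and the TATA motif TATAAA, in 12.4%, each matched the C7 window. These motifs too were searched on both strands. The TATA match is the reverse complement, TTTATA, in the 6 bases directly before the start. An IRF-type motif, in 2.98% of windows, and an NF-kB-type motif, in 0.356%, matched none of the 6. A match is a description of these letters and not a site in use.

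Other complement genes were read from 6 lists of 44 genes, 36 of which were tested. Of these, 1 passed, 12 had both mLN arrays above both pLN arrays, 4 had both below, and the median log2 fold change was 0.15. The 1 gene that passed was Cpn1, a subunit of the carboxypeptidase that trims the small complement fragments. Its probe failed the background criterion on both pLN arrays, so it entered the test through mLN alone. Against the background limit the gene was at least 8.42-fold higher in mLN. The limma adjusted p of 0.0300 was computed from the measured signals, also those of pLN. It does not test this bound.

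Among the 6 fluid-phase regulators tested, 5 had both mLN arrays above both pLN arrays, and the median was 0.78. Cfi, the protease that inactivates C3b and C4b fragments, had levels of 0.464 and 0.860 on the mLN arrays and 0.158 and 0.324 on the pLN arrays, with a log2 fold change of 1.48 ± 0.48 (limma adjusted p = 0.285). Vtn, which encodes vitronectin, an inhibitor of pore assembly, had 0.78 ± 0.29 (adjusted p = 0.339). Neither Cfi nor Vtn passed. Both Cfi arrays of mLN lay above those of pLN, and the same held for Vtn.

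Of 11 classical and lectin initiators tested none passed, 3 lay above and 1 below, with a median of 0.21. C1qa, a chain of the C1q molecule that carries C1r and C1s and is a product of macrophages, had 0.42 ± 0.31 (adjusted p = 0.637) with overlapping nodes, at 0.338 and 0.230 on the mLN arrays and 0.256 and 0.170 on the pLN arrays. Fcna, a ficolin that starts the lectin pathway, had 1.56 ± 0.31 (adjusted p = 0.136). Its levels were low, at 0.052 and 0.043 on the mLN arrays and 0.021 and 0.012 on the pLN arrays. On pLN 2 it lay below C7, which was itself near the background limit there. Cfp, which encodes properdin, a stabiliser of the alternative pathway enzyme, was below in both experiments, at −0.74 ± 0.23 (adjusted p = 0.265). Of the 3 other terminal pathway genes tested none passed, and C6 had 0.31 ± 0.20 (adjusted p = 0.585).

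Regulators anchored in the membrane gave a median of 0.11 over 7 genes tested, with 1 above and none below. Cd59b, which blocks the terminal pore, had 0.37 ± 0.19 (adjusted p = 0.497). Of 8 complement receptors tested, 2 lay above, 2 below and none passed. Cr2, a complement receptor of B cells and follicular dendritic cells, had levels of 4.95 and 7.35 on the mLN arrays and 3.02 and 1.98 on the pLN arrays, with a log2 fold change of 1.30 ± 0.31 (adjusted p = 0.178).

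**Figure D4:**
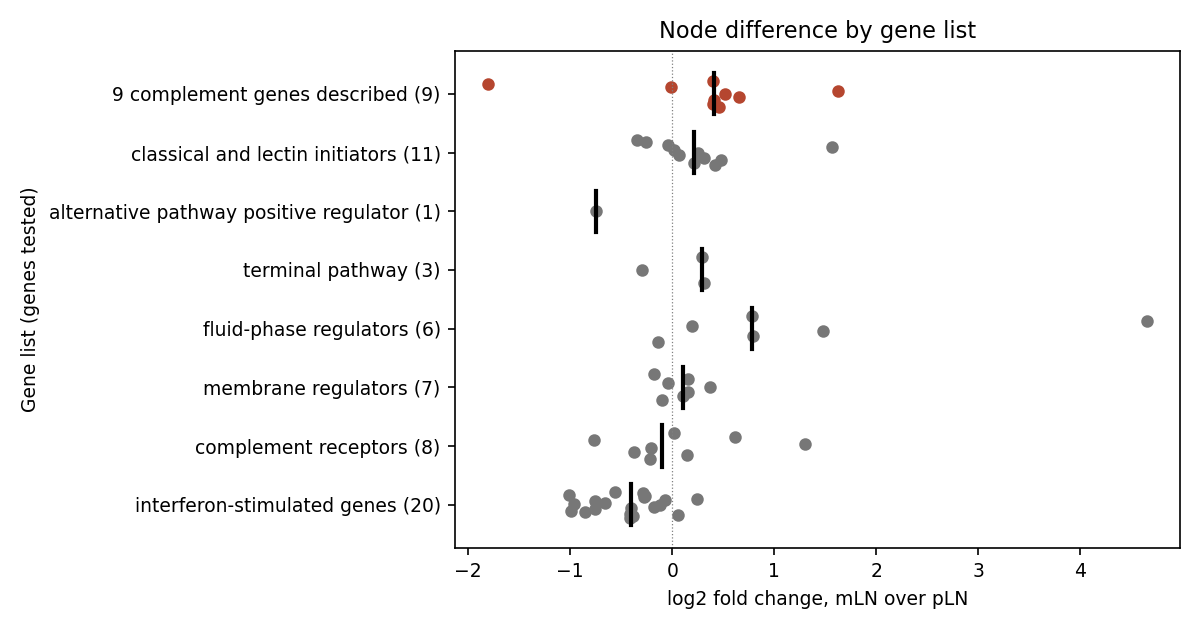
Log2 fold change, mLN over pLN, of each tested gene in the complement lists and in the interferon-stimulated list, with 1 point per gene, a vertical bar at the list median and the number of genes tested in brackets. The members have a median of 0.41, the fluid-phase regulators 0.78 and the interferon-stimulated genes −0.41.

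Complement genes are known to respond to inflammatory and interferon signals, so genes of those responses were read beside them. Of 20 interferon-stimulated genes none passed, 15 had both mLN arrays below both pLN arrays and 1 above, with a median of −0.41. Rsad2, an antiviral enzyme, had −1.01 ± 0.26 (adjusted p = 0.193), and Isg15, a ubiquitin-like protein, had −0.66 ± 0.16 (adjusted p = 0.189). Of 14 acute phase and NF-kB target genes none passed, 4 lay above and 3 below, with a median of −0.13. Orm1, an acute phase protein, had −1.76 ± 0.20 (adjusted p = 0.0523), and Saa2, a serum amyloid A gene, had −1.23 ± 0.22 (adjusted p = 0.121). The median of the members lay above 0 and that of the interferon list below 0, and the difference between the lists was not tested.

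Markers of other cell types that the fraction could hold were read beside the complement genes. Of 12 mesothelial markers 8 passed as higher in mLN, with a summed level of 57.3 to 74.9 in mLN and 32.4 to 33.6 in pLN. The brightest probe in that sum was Gpm6a, at 19.3 to 23.4 in mLN and 21.0 to 21.8 in pLN. The defining markers Wt1 and Bnc1 failed the background criterion on both pLN arrays. Of 11 macrophage markers 2 passed, Marco and Mrc1, both higher in mLN, while 4 lay above, 3 lay below and the median was −0.40. Timd4, a receptor of tissue macrophages for dying cells, had −2.32 ± 0.29 (adjusted p = 0.0624). The summed level was 56.1 to 64.8 in mLN and 14.2 to 17.8 in pLN, of which Marco alone made up 50.1 to 56.5 in mLN and 5.27 to 5.67 in pLN. Of 12 fibroblast markers 5 lay above, none below and none passed, with a median log2 fold change of only 0.10. Their summed levels were 979 to 1060 in mLN and 878 to 898 in pLN. The smallest p in this list were those of Lum and Dpt. Lum, a collagen-binding proteoglycan, had 0.86 ± 0.14 (adjusted p = 0.103), and Dpt, a matrix protein, had 0.98 ± 0.18 (adjusted p = 0.126).

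Of 12 endothelial markers 7 lay below, 2 above and none passed, with summed levels of 156 to 162 in mLN and 188 to 197 in pLN. Of 9 follicular dendritic cell markers 6 lay above and none passed, with a median log2 fold change of 0.52. Their summed levels were 473 to 607 in mLN and 361 to 406 in pLN. The brightest probe in that sum was Mfge8, at 255 to 298 in mLN and 140 to 173 in pLN. Of 11 pancreatic acinar markers all lay above and 1 passed, with summed levels of 368 to 1059 in mLN and 1.35 to 19.0 in pLN. The gene that passed, Amy2a5, failed the background criterion on both pLN arrays, so its p rests on pLN signals below that criterion. Of 12 gland and skin epithelial markers 4 passed as lower in mLN and 10 lay below, with summed levels of 0.912 to 0.960 in mLN and 6.72 to 15.5 in pLN. Among those that passed, Esrp1 and Areg failed the background criterion on both mLN arrays, so their p rests on mLN signals below it. Of 4 hepatocyte markers tested none passed, with summed levels of 1.74 to 3.56 in mLN and 1.72 to 1.86 in pLN, most of it from Ahsg, at 1.58 to 3.27 in mLN and 1.34 to 1.64 in pLN. Of 12 lymphocyte markers none passed, and Ptprc, which encodes CD45, had 0.06 ± 0.21 (adjusted p = 0.944). The part of these cell types in the complement ratios was not tested.

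The genes whose profile over the 4 arrays was most like that of C3 were named by the root mean square difference of their log2 values, each centred on its own mean. For C3 these were ENSMUST00000063103 at 0.011, Hic1 at 0.023, Frrs1 at 0.028, Gstt3 at 0.030 and Gstm3 at 0.032. For C7 they were an immunoglobulin kappa variable gene segment at 0.083, Klk1b24 at 0.14, Rhox9 at 0.17, 1700112M01Rik at 0.18 and ENSMUST00000103364 at 0.27. The 5 genes like C7 had log2 ratios, mLN over pLN, of 2.52 to 3.08 in experiment 1 and −0.13 to 0.49 in experiment 2. With 4 arrays and 21392 genes, close profiles are a description only.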

How the data were processed

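RNA of CD45-negative lymph node cells was measured on 4 one-colour arrays. The deposited intensity values were written by the program Agilent Feature Extraction, version 9.5.3.1, with background subtracted, per the file headers. The files' flags for signals well above background, saturation and outliers were also used. A deposited value table, found by comparison to hold the same intensity values on a linear scale times 1 factor per array (0.862 and 0.867 for mLN, 0.865 and 0.890 for pLN), served as an alternative. Its column medians were 172 and 161 for mLN and 169 and 167 for pLN. How it was centred is not stated.

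From the processed signals, control and outlier spots were dropped, the spots of a probe averaged, log2 taken and each array's 75th percentile subtracted. A probe entered if either node had it well above background on both its arrays (31883 of 41174 probes), and a gene was its brightest entering probe, which left 21392 genes. Probes were named through RefSeq genes on GRCm38.p6 (24375 by accession, 6301 by symbol, 2426 by synonym, 8072 by the files' own name). The C4 and C1 gene copies can share probe signal.

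Differences, mLN minus pLN, were tested with limma 3.58.1 in R 4.3.3 (lmFit and eBayes, 2 arrays per node, Benjamini-Hochberg over all genes, threshold 0.05, 4.35 degrees of freedom in total). The step was tested on simulated data. The number of arrays limits the precision. Values after ± are standard errors unless stated. A gene not well above background in a node has a bound, "at least", against the lowest signal well above background on each array of that node. The bound takes the brighter node's mean as measured.

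The experiment numbers in the labels mark a shared experiment. The change between experiments in mLN correlated with that in pLN at r = 0.246 over all genes tested, and the experiment was also fitted as a block.

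Named genes were all members, at most 4 genes per other list by smallest p, Adipoq and C1qa, Ptprc as the sort's marker, and the 5 profiles nearest to C3 and to C7. One gene of the other lists is not reported here. Members and lists were chosen with earlier results of these data known. Alternatives covered background correction, scaling, the filter, the probe rule, the variance trend, the block, the value table and each array left out.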

Additional observations from a re-analysis of the deposited data

How the results depend on the processing

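In all 14 alternative settings the log2 fold changes of C1r, C1s, C4b, C2, C3, Serping1 and C7 stayed above 0 and that of Cfd below 0. The C7 value, 1.62 in the setting reported, was 0.82 with normexp on 1 background value for each array. With normexp on the local background it was 2.46. Of the 9 genes none passed in 13 settings, and 1, C7, passed without mLN replicate 2 (0 to 1 with 1 array left out). Cfb changed sign, to 0.0028 with median scaling, and ranged from −0.090 to 0.07 with 1 array left out (0.019 without mLN replicate 1 and 0.072 without pLN replicate 1). The median of the members was 0.076 with normexp on the local background and 0.34 with quantile normalization, and 0.34 to 0.52 with 1 array left out. With normexp on the local background the median of all genes was 0.38, so the members' median lay 0.31 below it (a difference of −0.31). The count of all genes called, 225 in the setting reported, was 0 with that correction, 358 with normexp on 1 background value for each array, 354 with median scaling, 44 without a filter on dim probes, 441 with an intensity trend, and 0 to 190 with 1 array left out, with 0 when either pLN array was left out. With the replicate block (experiment as a paired term) 333 genes passed, none of them a member, and it changed no member's call. The cause of these shifts was not tested. With 2 arrays per node and 1 slide, slide and scan effects could not be estimated, and no called gene differed by less than 2.51-fold, above the size of most member ratios.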
